A study of Mus musculus with 20 samples.

Results

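The noncoding RNA and intergenic positions of this RNA editing series were 1438 of the 48425 editing positions that its tables list on the mouse build mm9. They were chosen by annotation and depth alone. A position annotated as noncoding RNA or as intergenic was taken if it had at least 50 reads in both libraries of at least 1 of the 10 groups. Of 823 noncoding RNA positions listed, 378 met this rule, in 12 named transcripts. Of 10810 intergenic positions listed, 1060 met it, and those within 5 kb of one another were counted as 1 locus, which gave 35 intergenic loci and 47 loci in all. The thinnest member had 61 reads in the shallower library of its best group, and the best covered position left outside had 48.

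All libraries came from mouse embryonic fibroblasts (MEFs), connective tissue cells grown from embryos. The labels name 5 lines: ADAR1_WT, ADAR2_NULL, STAT2_NULL, P150_KO and ADAR1_NULL. They are called wild type, ADAR2-null, STAT2-null, p150-knockout and ADAR1-null here. The wild-type label speaks of ADAR1 only. Each line was sampled untreated (UNT) and after interferon (IFN), with 2 libraries per line and treatment, so there were 20 libraries in 10 groups. The sources used here do not give the interferon's type, dose or duration. Every genotype was represented by a single line, and genotype and other properties of a line cannot be told apart. Whether paired libraries stem from different cultures is not stated. The p-values cover only the spread between such libraries, which may be technical and which the fit pools over the groups. The assay reads editing and no transcript amounts, so neither the loss of the targeted genes nor fibroblast markers were checked.

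Adenosine deaminases acting on RNA (ADARs) deaminate adenosines within RNA duplexes to inosine, which sequencing reads as guanosine. ADAR1 is made as a shorter constitutive form, p110, and as a longer form, p150, whose promoter is induced by interferon through a complex that contains STAT2. ADAR2 is a separate enzyme with its own preferred sites. Much editing in mammals falls in sequence that codes for no protein, such as introns, 3′ UTRs, noncoding RNAs and stretches between genes, where inverted repeats can fold into long duplexes, and several nearby adenosines of 1 duplex are often edited together. An editing level is the share of reads over a position that carry the edited base.

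Summed coverage was 4389326 to 5559674 reads per library, and the noncoding RNA and intergenic positions took 10.9% to 15.0% of it. The members with at least 50 reads in both libraries ranged from 812 in treated p150-knockout cells and 861 in untreated ADAR1-null cells to 1407 in untreated STAT2-null cells, and 559 members were covered in every group. The shallower libraries of the first 2 groups were their first replicates, with 884 and 861 covered members against 1123 and 1320 in the second. Many intergenic loci therefore have no value in untreated ADAR1-null or treated p150-knockout cells. Coverage also stepped within loci: in treated wild-type cells it was 2622 reads at position 30561108 on chromosome 16 and 5279 at the next base. The cause of these steps was not tested, and the reads behind a level need not be independent of one another.

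Most members were hardly edited. In every group that covered them, 1148 of the 1438 stayed under 1%, 290 reached a group mean of 1% and 75 reached 5%. A further 8 peaked between 4% and 5%. The 75 positions lay in 15 loci, 26 of them in 4 noncoding RNAs and 49 in 11 intergenic loci. Of all members 5.22% reached 5%, against 13.4% of covered 3′ UTR positions and 4.75% of covered intronic ones. These shares are a description, since positions of 1 amplicon share reads. Of the 75, 58 had another of the 75 within 10 bases, and of all 1438 members 1387 had another member that near.

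**Figure D1:**
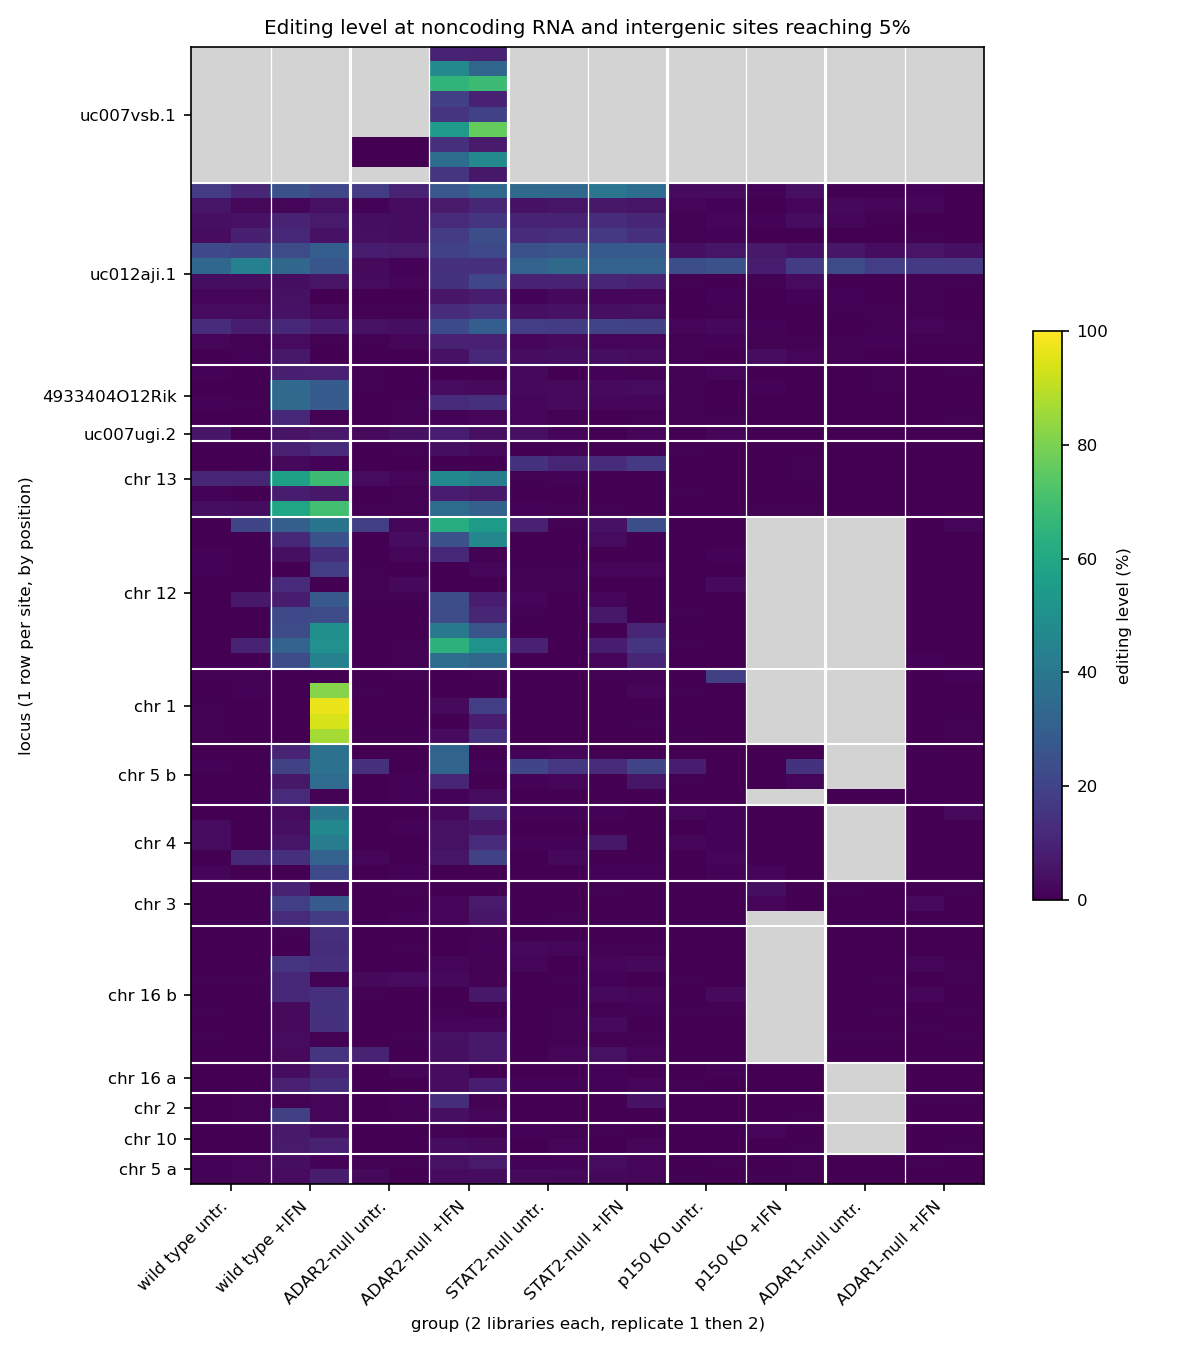
Editing level in percent, as colour, at the 75 positions reaching 5% in a group (rows, by position within their locus) in the 20 libraries (columns, replicate 1 then 2 of each group). Grey marks groups in which a library had under 50 reads. Intergenic loci are named by chromosome, with chr 5 a and b starting at 65839227 and 143631663 and chr 16 a and b at 4626224 and 30561084. High levels stand mainly in the treated wild-type and treated ADAR2-null columns, while uc012aji.1 is edited in untreated cells too.

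Among these 75 positions, 44 had their highest group mean in treated wild-type cells and 26 in treated ADAR2-null cells. Treated STAT2-null cells held the highest mean at 3, and untreated p150-knockout and untreated wild-type cells at 1 each. The number of members at 5% or more was 8 in untreated and 55 in treated wild-type cells, and 5 and 48 in ADAR2-null cells. It was 10 and 14 in STAT2-null cells, 2 and 3 in p150-knockout cells, and 1 and 1 in ADAR1-null cells. In the last 4 groups the number of members covered also differed, as given above. The single position above 5% in ADAR1-null cells lay in uc012aji.1. Outside that transcript, no position of the 75 that was covered in untreated ADAR1-null cells exceeded 0.487% (25 positions), and none in treated ADAR1-null cells exceeded 1.54% (54 positions).

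A common basis was given by the 559 members that had 50 or more reads in each of the 20 libraries, 181 in 6 noncoding RNAs and 378 in 19 intergenic loci, whatever their level. Since most of them were hardly edited, the means are low. Over the noncoding RNA positions the mean level was 0.837% ± 0.0144 (SD, n = 2) in untreated and 1.42% ± 0.215 in treated wild-type cells. It was 0.533% ± 0.0376 and 1.51% ± 0.215 in ADAR2-null cells, and 1.19% ± 0.0384 and 1.20% ± 0.0379 in STAT2-null cells. Without p150 it was 0.495% ± 0.0659 and 0.531% ± 0.0515, and without ADAR1 0.339% ± 0.0266 and 0.350% ± 0.0665. Untreated STAT2-null libraries thus stood above untreated wild-type ones, with no overlap. The few highly edited positions weigh most in these means. Over the 12 positions of uc012aji.1 that reached 5%, the untreated mean was 13.3% in STAT2-null and 9.05% in wild-type cells. In ADAR2-null cells it was 3.36% untreated and 15.9% treated. In the edgeR test described below, 0 of 22 noncoding RNA positions were called between untreated STAT2-null and wild-type cells (2.95% of all positions). Over the intergenic positions the untreated and treated means were 0.140% ± 0.0174 and 0.701% ± 0.0147 in wild-type cells, and 0.143% ± 0.0204 and 0.386% ± 0.00726 in ADAR2-null cells. STAT2-null cells gave 0.175% ± 0.0111 and 0.163% ± 0.00847, and the libraries of the ADAR1-deficient lines reached at most 0.163%. The treated wild-type and ADAR2-null libraries lay above all others here. With 2 libraries against 2, no permutation test of such a mean can reach 0.05, and none is given.

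Editing rose with interferon in wild-type and ADAR2-null cells. Every line was tested with edgeR's quasi-likelihood test on edited and unedited counts, fitted over the whole series. Tested positions had 50 or more reads in each library compared and a mean of 1% or more over these libraries, and a position was called where its Benjamini-Hochberg adjusted p, over everything tested, was under 0.05. This mean favours positions that differ, so the counts are descriptive. In wild-type cells 33 of 98 tested members were called, all higher, in 11 loci, where 41% of all positions tested in the series were called and 40.4% were called higher. A fit of these 2 groups alone called 8. In ADAR2-null cells 34 of 82 were called, all higher, in 11 loci, against 52.3% of all positions called and 52.2% called higher. Of the wild-type calls 28 were intergenic and 5 in noncoding RNAs, and of the ADAR2-null calls 17 and 17, 13 of the latter in uc012aji.1 on chromosome 17. The lists shared 13 positions, 39.4% of the wild-type and 38.2% of the ADAR2-null one, and 8 loci. Of the wild-type calls 21 were testable in ADAR2-null cells, and of the ADAR2-null calls 31 in wild-type cells.

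No member was called with interferon in the other lines. The edgeR test gave 0 of 44 tested members in STAT2-null cells (3 at an unadjusted p under 0.05; 0% of all positions called), 0 of 26 in p150-knockout cells (1 unadjusted; 1.65% of all) and 0 of 5 in ADAR1-null cells (1 unadjusted; 0% of all), and limma called 0 in each. Median differences between treated and untreated means over the positions that reached 5% were 0.154 points in STAT2-null, 0.0489 points in p150-knockout and 0.0723 points in ADAR1-null cells, over 66, 40 and 37 covered positions. The same median was 8.48 points in wild-type cells (66 positions) and 5.44 points in ADAR2-null cells (68 positions). These positions were chosen as those high in some group, so the medians are not compared by a test.

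Untreated, the lines were called against wild type at members of uc012aji.1 and of an intergenic locus on chromosome 13. ADAR2-null cells were lower at 3 of 28 tested (13.6% of all positions called, 12.9% lower). STAT2-null cells differed at 2 of 38, 1 higher and 1 lower (2.95% of all called, 1.24% higher and 1.71% lower). p150-knockout cells were lower at 9 of 31 (33.1% of all, 32.5% lower) and ADAR1-null cells at 9 of 19 (49.2% of all, 49% lower), in each case 7 in uc012aji.1 and 2 on chromosome 13. p150-knockout cells were higher than ADAR1-null cells at 2 of 13 members, both in uc012aji.1 (11.8% of all called, 9.21% higher). These comparisons share the wild-type libraries.

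With interferon, the lines that lack ADAR1, p150 or STAT2 stood below wild type at members of many loci. ADAR1-null cells were lower at 56 of 93 tested, in 14 loci, and higher at none (69.5% of all positions called). p150-knockout cells were lower at 35 of 69 and higher at 1 (64.5% of all called, 63.9% lower and 0.577% higher). The 1 higher was 6123191 of uc012aji.1, at 3.80% and 1.41% against 0% in both wild-type libraries. STAT2-null cells were lower at 22 of 99 and higher at 1 (40.9% of all called, 39.8% lower and 1.15% higher). ADAR2-null cells were lower at 1 and higher at 1 of 111 (2% of all called, 1.56% lower and 0.445% higher). Treated p150-knockout and ADAR1-null cells differed at 0 of 20 members (4 at an unadjusted p under 0.05 in edgeR, 1 adjusted call by limma; 7.11% of all).

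The number of calls moved with single libraries. Without treated wild-type library 1 the ADAR2-null comparison with interferon called 16 members and the STAT2-null one 42. The STAT2-null count was 10 without its first and 12 without its second treated library, and the ADAR1-null count with interferon was 34 without its second treated library. Untreated, the p150-knockout count was 4 without its first and 5 without its second library. The untreated ADAR2-null count was 1 without either of its libraries or the second wild-type one. The untreated STAT2-null count was 0 without its first library and 1 without its second or the second wild-type one. p150-knockout against ADAR1-null cells gave 0 or 1 untreated without any single library, and with interferon 5 and 4 without the first and second p150-knockout library. The treated ADAR2-null count was 1 without the second wild-type library and 0 without either of its own. Interferon in p150-knockout cells gave 2 calls without either treated library.

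**Figure D2:**
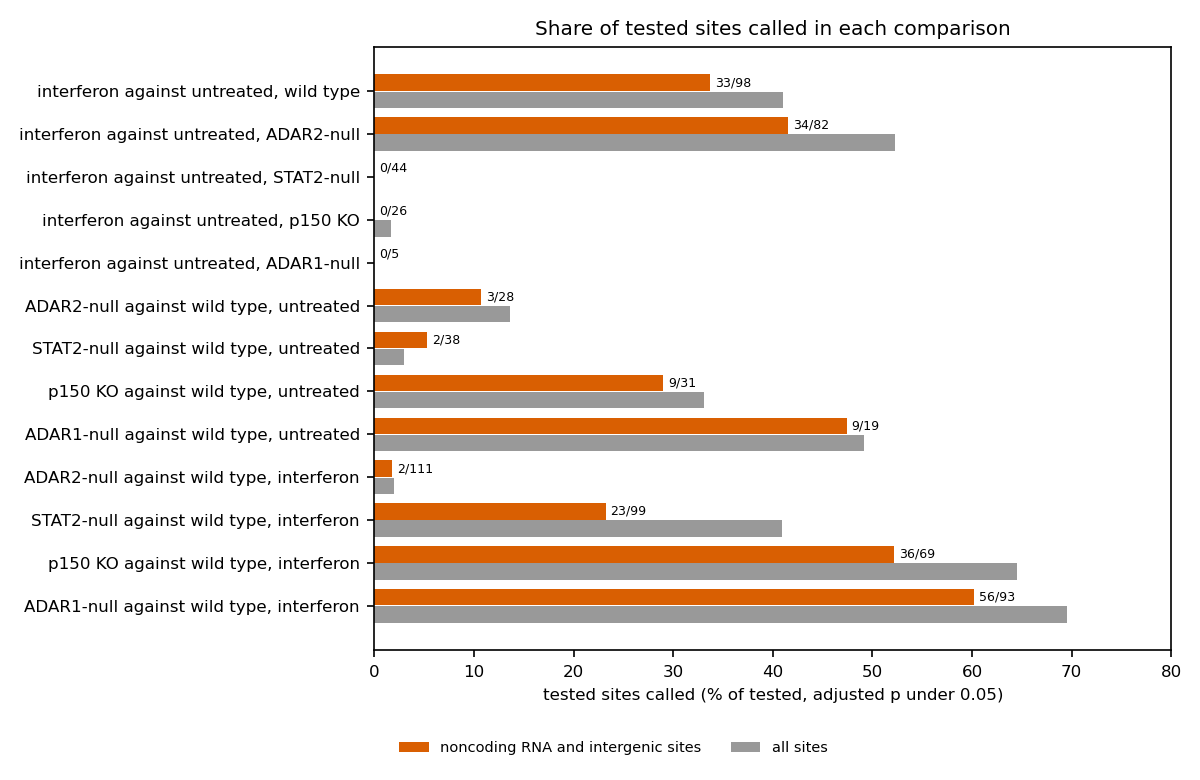
Share of tested positions called at an adjusted p under 0.05, in percent, for noncoding RNA and intergenic positions (orange, with called/tested beside the bar) and for all positions of the series (grey), in 13 comparisons. Orange bars are near or below grey ones in most comparisons, for example 33 of 98 against 41% for interferon in wild-type cells.

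The noncoding RNA with the most edited positions was uc012aji.1, a UCSC transcript on the plus strand of chromosome 17 (positions 6122579 to 6123249). No gene symbol was matched to it here. It had 77 members, of which 26 reached 1% and 12 reached 5%, 11 of them within the stretch from 6122608 to 6122662. It was edited in untreated cells too. Its most edited position was 6122636, read by 7671 to 10097 reads per untreated group.

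Position 6122636 was edited without ADAR1 and hardly at all in untreated cells without ADAR2. Its level was 33.5% and 43.8% in the untreated wild-type libraries, 31.3% and 34.7% in STAT2-null, 24.1% and 24.8% in p150-knockout and 23.3% and 18.1% in ADAR1-null cells. In untreated ADAR2-null cells it was 2.67% and 0.911%. Untreated ADAR2-null cells thus lay below every other untreated library. The difference from wild type was -36.9 percentage points (SE 5.21, edgeR adjusted p = 6.5e-05), and it kept its call in all alternatives but a fit of only the 2 groups compared (adjusted p = 0.0862). The differences of ADAR1-null (-17.9 points, SE 5.76, adjusted p = 0.0748) and p150-knockout cells (-14.2 points, SE 5.15, adjusted p = 0.203) from wild type did not pass. With interferon the level was 33.1% and 26.7% in wild-type, 16.9% and 16.5% in ADAR1-null, 7.64% and 17.6% in p150-knockout and 14.3% and 13.6% in ADAR2-null cells. The rise within ADAR2-null cells was 12.2 points (SE 0.950, adjusted p = 0.00058), and the difference of that response from the wild-type one, 20.9 points (SE 6.12), was not called (adjusted p = 0.127).

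Other positions of the same stretch were low in the lines that lack ADAR1 or p150. At 6122608, 28 bases upstream of 6122636, the untreated level was 17.8% and 10.6% in wild-type, 17.7% and 9.90% in ADAR2-null and 34.2% and 33.4% in STAT2-null cells. In p150-knockout cells it was 2.80% and 3.09%, and in ADAR1-null cells 0.543% and 0.608%. ADAR2-null and wild-type libraries overlapped here, while both lines deficient in ADAR1 lay below all others. The difference of ADAR1-null from wild-type cells was -13.6 points untreated (SE 3.60, adjusted p = 6.91e-05) and -22.3 points with interferon (SE 1.79, adjusted p = 7.47e-06). The excess of STAT2-null over wild-type cells, 19.6 points untreated (SE 3.62), was not called (adjusted p = 0.253). Of 11 tested positions of uc012aji.1, 7 were called lower in untreated ADAR1-null than in untreated wild-type cells, and 7 of 11 in p150-knockout cells.

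A small amount of editing remained in p150-knockout cells where ADAR1-null cells had less. Untreated p150-knockout cells stood at 2.80% and 3.09% at 6122608, 2.37 points above ADAR1-null cells (SE 0.152, adjusted p = 0.0269). At 6122654 they stood at 1.44% and 2.31%, against 0.0388% and 0.405%, a difference of 1.66 points (SE 0.474, adjusted p = 0.00778). The call at 6122608 was lost without either library of either group (adjusted p = 0.0811 to 0.167) and in 4 further alternatives. The call at 6122654 was lost without the first ADAR1-null library or either p150-knockout library, and with only the groups compared. That second position was chosen after its values were seen.

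**Figure D3:**
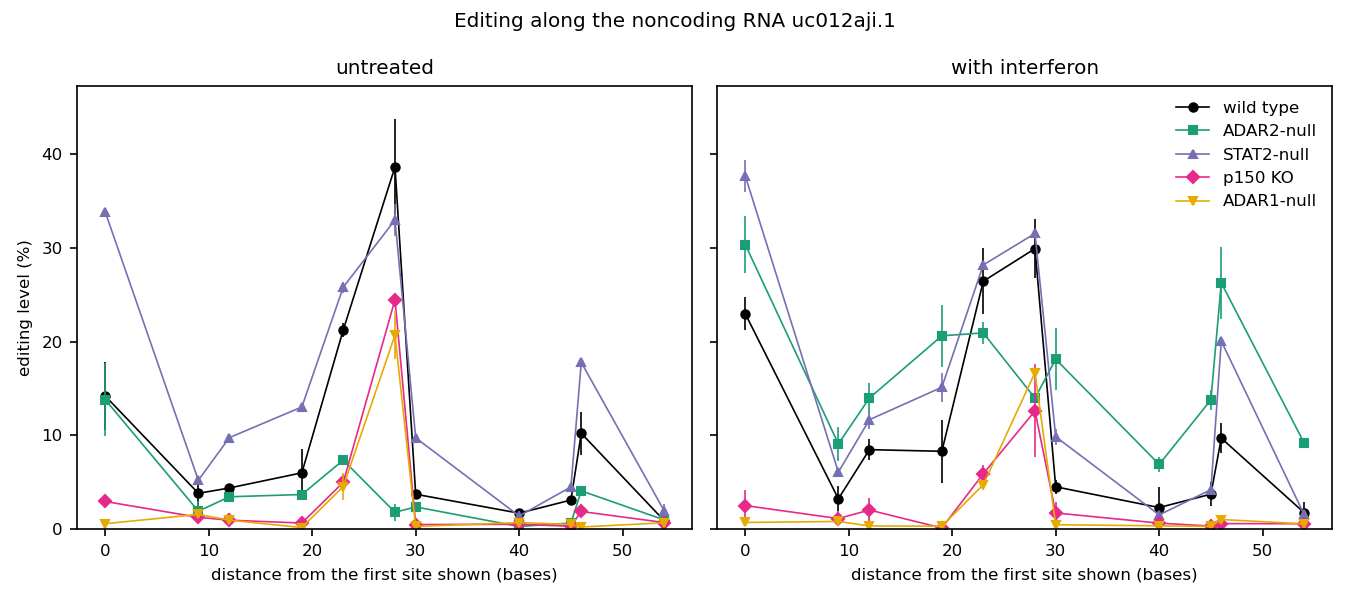
Mean editing level (percent) at 11 positions of uc012aji.1, plotted by distance in bases from the first of them, in untreated (left) and interferon-treated (right) cells of the 5 lines. Vertical lines join the 2 libraries of a group. At a distance of 28 bases untreated ADAR2-null cells fall to 1.79% while ADAR1-null cells hold 20.7%, whereas at distance 0 the order of these lines is reversed.

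With interferon, most tested positions of uc012aji.1 rose in ADAR2-null cells. There 13 of 17 tested positions were called higher, against 1 of 15 in wild-type cells, but the difference between the 2 responses passed at no position of uc012aji.1. At 6122654 the level was 4.42% and 3.73% in untreated and 22.5% and 30.1% in treated ADAR2-null cells (22.2 points, SE 3.83, adjusted p = 0.00278). In wild-type cells it was 12.5% and 7.89%, then 11.3% and 8.12%, with overlapping libraries (-0.52 points, SE 2.81, adjusted p = 0.948). The position called in wild-type cells was 6122584, with 0.208% and 0.124% before and 1.31% and 2.90% after interferon (1.94 points, SE 0.795, adjusted p = 0.0113). That call was lost without the second untreated wild-type library (adjusted p = 0.0686). STAT2-null levels were high without interferon at the main positions: position 6122654 read 18.2% and 17.4% untreated and 20.3% and 19.8% treated.

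4933404O12Rik, a long noncoding RNA by RefSeq's annotation, lies on the plus strand of chromosome 5 (members from 137410812 to 137410950, 35 positions). At its leading pair of positions no untreated library exceeded 2.45%, and wild-type cells rose with interferon. At 137410856 the wild-type level was 0.339% and 0% before and 34.3% and 29.0% after interferon. The treated libraries lay far above the untreated ones, by 31.5 points (SE 2.65, adjusted p = 0.000407), a call kept in all 10 alternatives. Its neighbour 2 bases on, 137410858, went from 1.02% and 0.622% to 34.5% and 28.9% (30.9 points, SE 2.81, adjusted p = 0.000252). Of 5 tested positions of this RNA 4 were called higher in wild-type cells. At 1 of them, 137410876, the treated libraries were far apart, at 11.2% and 0.454% (5.6 points, SE 5.37, edgeR adjusted p = 0.0467).

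The neighbouring positions in 4933404O12Rik parted in ADAR2-null cells. At 137410858 the ADAR2-null level was 0.358% and 0.413% untreated and 11.8% and 13.7% treated, a rise of 12.3 points (SE 0.914, adjusted p = 0.000389). At 137410856 it was 0.537% and 0.206%, then only 2.81% and 2.44%, which did not pass (2.26 points, SE 0.248, adjusted p = 0.0642). Compared directly in treated cells, ADAR2-null minus wild type was -29.0 points at 137410856 (SE 2.66, adjusted p = 0.0942) and -18.95 points at 137410858 (SE 2.95, adjusted p = 0.429), and neither difference was called although the libraries did not overlap. At 137410856 STAT2-null cells read 2.34% and 2.45% untreated and 2.59% and 2.73% treated. The p150-knockout and ADAR1-null libraries stayed at or below 0.879% there. The interferon response at 137410858 differed from the wild-type one by -31.5 points in STAT2-null cells (SE 2.85, adjusted p = 0.00516, kept in all 14 alternatives) and by -31.2 points in p150-knockout cells (SE 2.82, adjusted p = 0.00173).

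uc007vsb.1, a UCSC transcript on the plus strand of chromosome 15 (55087112 to 55087292, 20 members), met the depth rule in ADAR2-null cells alone. Its median position had 64 and 76 reads in the treated and 67 and 33 in the untreated ADAR2-null libraries. In the other lines no library had more than 97 reads over any of its positions, no group met the depth rule, and 7 of the 16 libraries had no read. Untreated p150-knockout libraries came nearest, with medians of 50 and 23 reads, and had 0 edited of 73 reads at 55087127. A missing amplicon and absent RNA cannot be told apart in these counts. In treated ADAR2-null cells 9 positions reached 5%, led by 55087127 at 65.6% and 68.4% and 55087178 at 54.0% and 76.3%. Untreated ADAR2-null libraries, below the depth rule there, read 5.97% and 12.1% at 55087127 and 5.97% and 3.03% at 55087178. At 55087197, 1 of 2 positions tested, the untreated depth passed the rule only through a coverage step. It was 134 and 66 reads, against 67 and 33 at 55087127. The level at 55087197 was 0% in both untreated libraries (0 of 200 reads, which allows a level of up to 1.5% if these reads are independent). In treated ones it was 35.4% and 47.1%. This difference of 41.2 points (SE 5.84, adjusted p = 0.00363) was kept in all 9 alternatives.

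Editing was low in the remaining noncoding RNAs. uc007ugi.2, on the minus strand of chromosome 14 (62295051 to 62295247), reached 5% at 1 of 34 members. That position, 62295239, read 5.33% and 6.94% in treated wild-type and 7.89% and 4.21% in treated ADAR2-null cells, over only 147 and 171 reads. It was listed at 0% in all 4 ADAR1-null libraries and in both treated p150-knockout libraries. Treated ADAR1-null and treated p150-knockout cells both stood at -6.14 points from treated wild-type cells (SE 0.806; adjusted p = 0.0471 and 0.0488). Both calls were near the threshold, and both were lost with no minimum mean level (adjusted p = 0.151 and 0.14). The first was lost without either ADAR1-null library or the second wild-type one (adjusted p = 0.0623 to 0.149), and the second without any single one of the 4 libraries compared (adjusted p = 0.0528 to 0.151). The other 8 noncoding RNAs peaked at 1.07% to 3.70%. Among them were 4831440E17Rik (19 members, highest mean 2.31%), A330023F24Rik (1 member, 1.07%) and Meg3, an imprinted RNA expressed from the maternal allele (13 members, 1.41%). Of a list of 40 well-known noncoding genes, such as Neat1, Malat1 and Xist, Meg3 was the only one with a position annotated as noncoding RNA. Positions listed under other annotations were 48 in Airn, 34 in Snhg11, 4 in Dleu2 and 1 each in Rian and Pvt1.

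The intergenic locus with the highest group mean at a single position lay on chromosome 13 (64391488 to 64391666, 32 members, 16 at 1% or more and 5 at 5% or more). At 64391666, with 2643 reads in treated wild-type cells, the wild-type level was 3.82% and 3.40% untreated and 59% and 69.6% treated. At 64391659, 7 bases before it, the level was 10.9% and 10.4%, then 56.8% and 68.5%. Both positions thus rose with interferon well beyond the spread of libraries, by 60.7 points (SE 5.30, adjusted p = 0.000398) and 52.0 points (SE 5.86, adjusted p = 0.00171). Of 10 tested positions of the locus 7 were called higher.

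ADAR2-null cells rose at this locus from a lower start. At 64391659 they read 2.82% and 1.83% untreated and 46.8% and 42.5% treated (42.3 points, SE 2.23, adjusted p = 0.000134). At 64391666 they went from 0.549% and 0.749% to 35.2% and 30.7% (32.3 points, SE 2.24, adjusted p = 8.5e-05). All 4 tested positions were called higher. Against untreated wild-type cells the untreated ADAR2-null level at 64391659 differed by -8.31 points (SE 0.546, adjusted p = 0.0411), but that call was lost without any single library of the 2 groups (adjusted p = 0.0816 to 0.183) and in 4 other alternatives, with adjusted p-values up to 0.415. In treated cells the difference at 64391666, -31.4 points (SE 5.75), was not called (adjusted p = 0.384).

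No ADAR1-null or p150-knockout library exceeded 0.739% at 64391659 or 64391666, treated or not. STAT2-null cells read 0.758% and 1.03% untreated and 0.263% and 0.172% treated at 64391659. Against treated wild-type cells, the 3 lines differed by -62.3 to -62.4 points at this position (adjusted p = 2.56e-07 for p150-knockout, 3.65e-07 for ADAR1-null and 1.95e-06 for STAT2-null cells). Untreated, the difference was -9.75 points in STAT2-null (SE 0.270, adjusted p = 0.0122), -10.5 points in p150-knockout (SE 0.238, adjusted p = 0.000123) and -10.4 points in ADAR1-null cells (SE 0.238, adjusted p = 2.98e-05). The untreated STAT2-null call was lost without either STAT2-null library or the second wild-type one. It was also lost with no minimum mean level and with only the groups compared. The interferon response at 64391666 differed from the wild-type one by -61.2 points in STAT2-null cells (SE 5.30, adjusted p = 0.00613, kept in all 14 alternatives). In p150-knockout cells it differed by -60.3 points (SE 5.30, adjusted p = 0.0461), a call that was lost without any single one of the 8 libraries (adjusted p = 0.0508 to 0.148). The test works on log odds, on which a level near 0 is poorly set.

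One position of the same locus ran the other way. At 64391618 STAT2-null cells read 14.5% and 10.3% untreated and 12.6% and 17.0% treated, while every library of the 4 other lines read 2.06% or less. Wild-type cells read 0.0974% and 0.328% untreated and 2.06% and 0.912% treated. STAT2-null cells were thus 12.2 points above wild type untreated (SE 2.07, adjusted p = 0.00189) and 13.3 points above it with interferon (SE 2.31, adjusted p = 0.00468), over 4582 to 6128 reads per group. Without the first untreated STAT2-null library the untreated call was lost (adjusted p = 0.0622), and likewise in a fit of these 2 groups alone (adjusted p = 0.13).

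**Figure D4:**
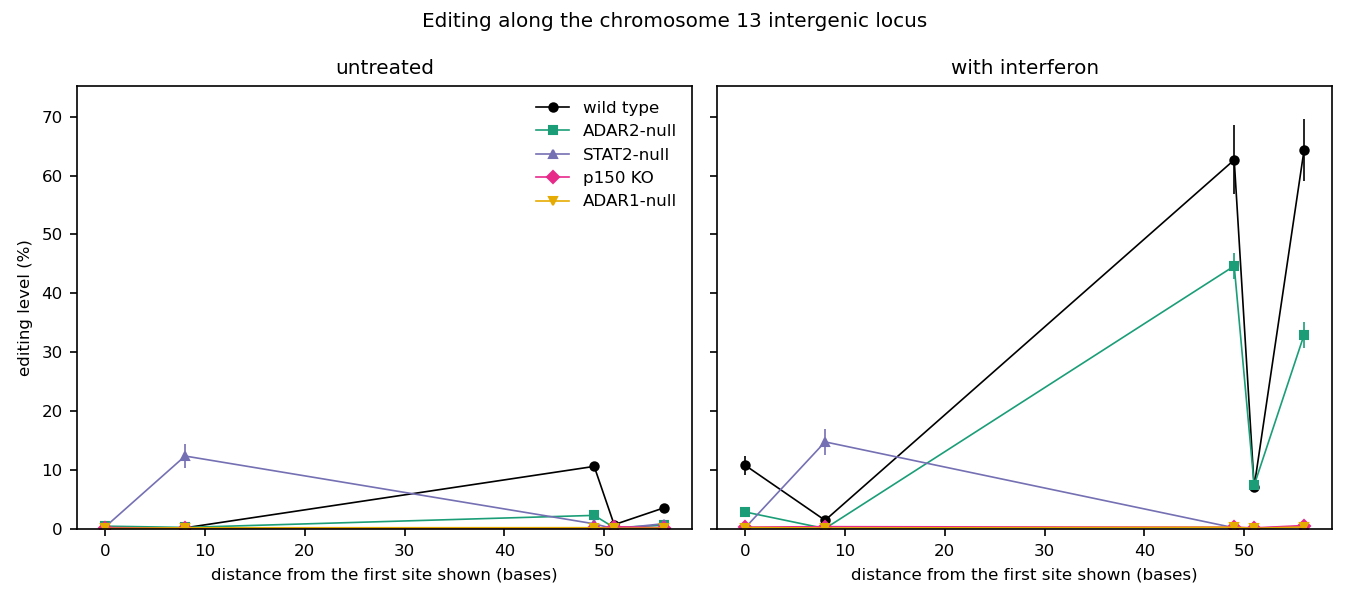
Mean editing level (percent) at the 5 positions of the chromosome 13 intergenic locus that reached 5% in a group, by distance in bases from the first, untreated (left) and with interferon (right), for the 5 lines. Vertical lines join the 2 libraries of a group. Wild-type and ADAR2-null cells rise at distances 49 and 56 with interferon, while STAT2-null cells are high only at distance 8, in both panels.

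On chromosome 12 (55773131 to 55773350, 44 members) 10 positions reached 5%, over 198 to 295 reads per covered group. Untreated p150-knockout cells read at most 2.34% at these positions and treated ADAR1-null cells at most 1.18%, and the remaining 2 groups of these lines had too few reads. At 55773344 ADAR2-null cells went from 0% and 0.667% to 64.2% and 51.4% with interferon (57.5 points, SE 6.44, adjusted p = 0.00118, kept in all 10 alternatives). Wild-type cells went from 0% and 9.91% to 31.3% and 50.5%, which did not pass (36.0 points, SE 10.8, adjusted p = 0.0529). At 55773338 the wild-type change did pass, from no edited read in 216, which sets an upper limit of 1.39%, to 23.2% and 50% (36.6 points, SE 13.4, adjusted p = 0.00704), a call lost in a fit of only the groups compared (adjusted p = 0.0673). STAT2-null cells were uneven here, with 9.15% and 0% untreated and 7.55% and 15.0% treated at 55773344. In all, 4 of 11 tested positions were called higher in wild-type and 7 of 10 in ADAR2-null cells.

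At 4 further intergenic loci the treated wild-type libraries were both raised. On chromosome 3 (100272281 to 100274403, 20 members), position 100272400 had 0 edited reads of 508 in untreated wild-type cells, an upper limit of 0.591%, and 18.4% and 28.7% in treated ones (23.6 points, SE 5.14, adjusted p = 0.00266). That call was lost in a fit of only the groups compared (adjusted p = 0.0605), as were the wild-type interferon calls at 8 of the 11 positions named by the rule (adjusted p = 0.0605 to 0.197). ADAR2-null cells reached 1.24% and 7.42% there (4.19 points, SE 3.09, adjusted p = 0.0505), and STAT2-null cells had no edited read in 702 untreated and 811 treated reads. On chromosome 16 near 4626224 (42 members), position 4626376 had 0 edited reads of 189 untreated and 9.09% and 12.9% treated in wild-type cells (11 points, SE 1.91, adjusted p = 0.015). That call was lost without either untreated wild-type library (adjusted p = 0.077 and 0.0617). ADAR2-null cells rose there to 3.30% and 7.78% (5.54 points, SE 2.24, adjusted p = 0.0332), a call lost in 5 of 9 alternatives, 3 of which left out 1 library (adjusted p = 0.103 to 0.139). On chromosome 10 (93427215 to 93428821, 53 members), position 93427325 went from 0.272% and 0% to 7.16% and 9.22% in wild-type cells (8.06 points, SE 1.04, adjusted p = 0.0119) and from 0% in both libraries to 3.15% and 2.44% in ADAR2-null cells (2.80 points, SE 0.354, adjusted p = 0.0164). The first of these calls was lost without the second untreated wild-type library (adjusted p = 0.0645) and the second without either untreated ADAR2-null library (adjusted p = 0.07 and 0.0794). On chromosome 6 (72557923 to 72557990, 18 members) position 72557984 rose from 0.18% and 0% to 6.14% and 2.15% (4.06 points, SE 2, adjusted p = 0.00611), a call lost without the second untreated library (adjusted p = 0.0617).

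The second locus on chromosome 16 (30561084 to 30561233, 42 members) was edited most in treated wild-type cells, at more positions in the second library than in the first. At 30561102 both libraries were high, with 15.1% and 13.5% after and 0.245% and 0.208% before interferon (14.1 points, SE 0.807, adjusted p = 0.000407, kept in all 10 alternatives). At 30561084, 30561093, 30561118, 30561133 and 30561183 the second treated wild-type library read 13.2% to 15.0% and the first 0.149% to 2.73%. At 30561103 the order was reversed, with 11.4% in the first and 0.49% in the second. ADAR2-null cells reached 4.52% and 6.75% at 30561180 with interferon (5.34 points, SE 1.12, adjusted p = 0.000479), where treated wild-type cells read 2.95% and 0.441%. Treated ADAR2-null cells differed from wild type by -8.27 points at 30561118 (SE 6.01, adjusted p = 0.0166), a call lost without either ADAR2-null library or the second wild-type one (adjusted p = 0.124 to 0.157), with limma (adjusted p = 0.11) and with only the groups compared (adjusted p = 0.281).

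Several intergenic loci showed a high level in 1 library of a pair. On chromosome 1 (180882199 to 180882398, 40 members) positions 180882374, 180882378, 180882381 and 180882390 read 81.8%, 97.0%, 93.9% and 86.4% in the second treated wild-type library and 0% in the first. At 180882380, between them, that second library read 4.55%, over 66 reads. At 180882378 the difference from untreated cells was 48.1 points with an SE of 48.5, and it was not called (adjusted p = 0.152). ADAR2-null cells read 2.35% and 18.6% there with interferon. At 180882341 untreated p150-knockout cells were the only group to reach 5%, from 1 library, with 0.332% in the first and 19.1% in the second. ADAR2-null cells changed from 0% to 2.34% and 7.23% at 180882380 (4.79 points, SE 2.45, adjusted p = 0.0171), a call lost without either untreated library (adjusted p = 0.073 and 0.0857) and with limma (adjusted p = 0.0507).

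Chromosome 4 (141316490 to 141316632, 21 members) was alike, over 144 to 152 wild-type reads per position and group. At 141316613 the treated wild-type libraries read 4.17% and 46.6%, at 141316616 5.63% and 42.5%, and at 141316605 2.78% and 38.9%. At the last of these the rise from 0 of 152 untreated reads (20.8 points, SE 18.1, adjusted p = 0.0364) was called, but not without either untreated library (adjusted p = 0.102 and 0.112). On chromosome 5 from 143631663 to 143632713 (55 members), position 143631754 read 9.76% and 37.5% in treated wild-type and 32.1% and 0% in treated ADAR2-null cells. Next to it, 143631755 was the only position there edited in untreated STAT2-null cells beyond 5%, at 20.8% and 15.8%. Treated STAT2-null cells read 12.1% and 20.4%. It was also edited in single libraries, with 13.3% and 0% in untreated ADAR2-null cells. In p150-knockout cells it read 8.09% and 0% untreated and 0% and 14.7% treated. Wild-type cells rose there from 0.823% and 0% to 19.5% and 37.8% (28.3 points, SE 9.16, adjusted p = 0.0412). That call was lost without the second treated wild-type library or either untreated one (adjusted p = 0.0743 to 0.108).

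The libraries of treated wild-type cells differed by over 10 points at 31 of the 66 covered positions among the 75, in 9 loci, and at 26 of them the second library was higher. In treated ADAR2-null cells 16 of 75 differed by that much, and in each other group 3 or fewer. Of the 33 wild-type interferon calls, 15 had treated libraries over 10 points apart. Over all regions, the spread between paired libraries was 20.2 as chi-square per degree of freedom in treated wild-type cells. In the other groups it was 3.20 to 11.5. The fit pools this spread, so p-values of comparisons with treated wild-type cells may be too small. At positions edited in both libraries the second treated wild-type library was not always the higher. It was the higher at the leading pair of chromosome 13, and the first was the higher at that of 4933404O12Rik. The cause of these differences was not tested.

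On chromosome 2 (163294013 to 163294180, 18 members) the first treated wild-type library was the higher, with 19% against 1.89% at 163294172, and its rise was not called (10.2 points, SE 8.57, adjusted p = 0.0505). On chromosome 5 from 65839227 to 65839316, the deepest of these loci with 9789 to 13255 reads per group, 2 adjacent positions reached 5%. Position 65839284 went from 0.722% and 0.439% to 4.47% and 7.28% in ADAR2-null cells (5.30 points, SE 1.41, adjusted p = 0.00278). Its neighbour 65839285 read 2.78% and 7.55% in treated wild-type cells, and treated p150-knockout cells differed from them by -4.66 points (SE 2.39, adjusted p = 0.00415). The other 24 intergenic loci stayed below 5%, with highest means from 0.304% to 4.15%, and in 14 of them no position reached 1%.

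**Figure D5:**
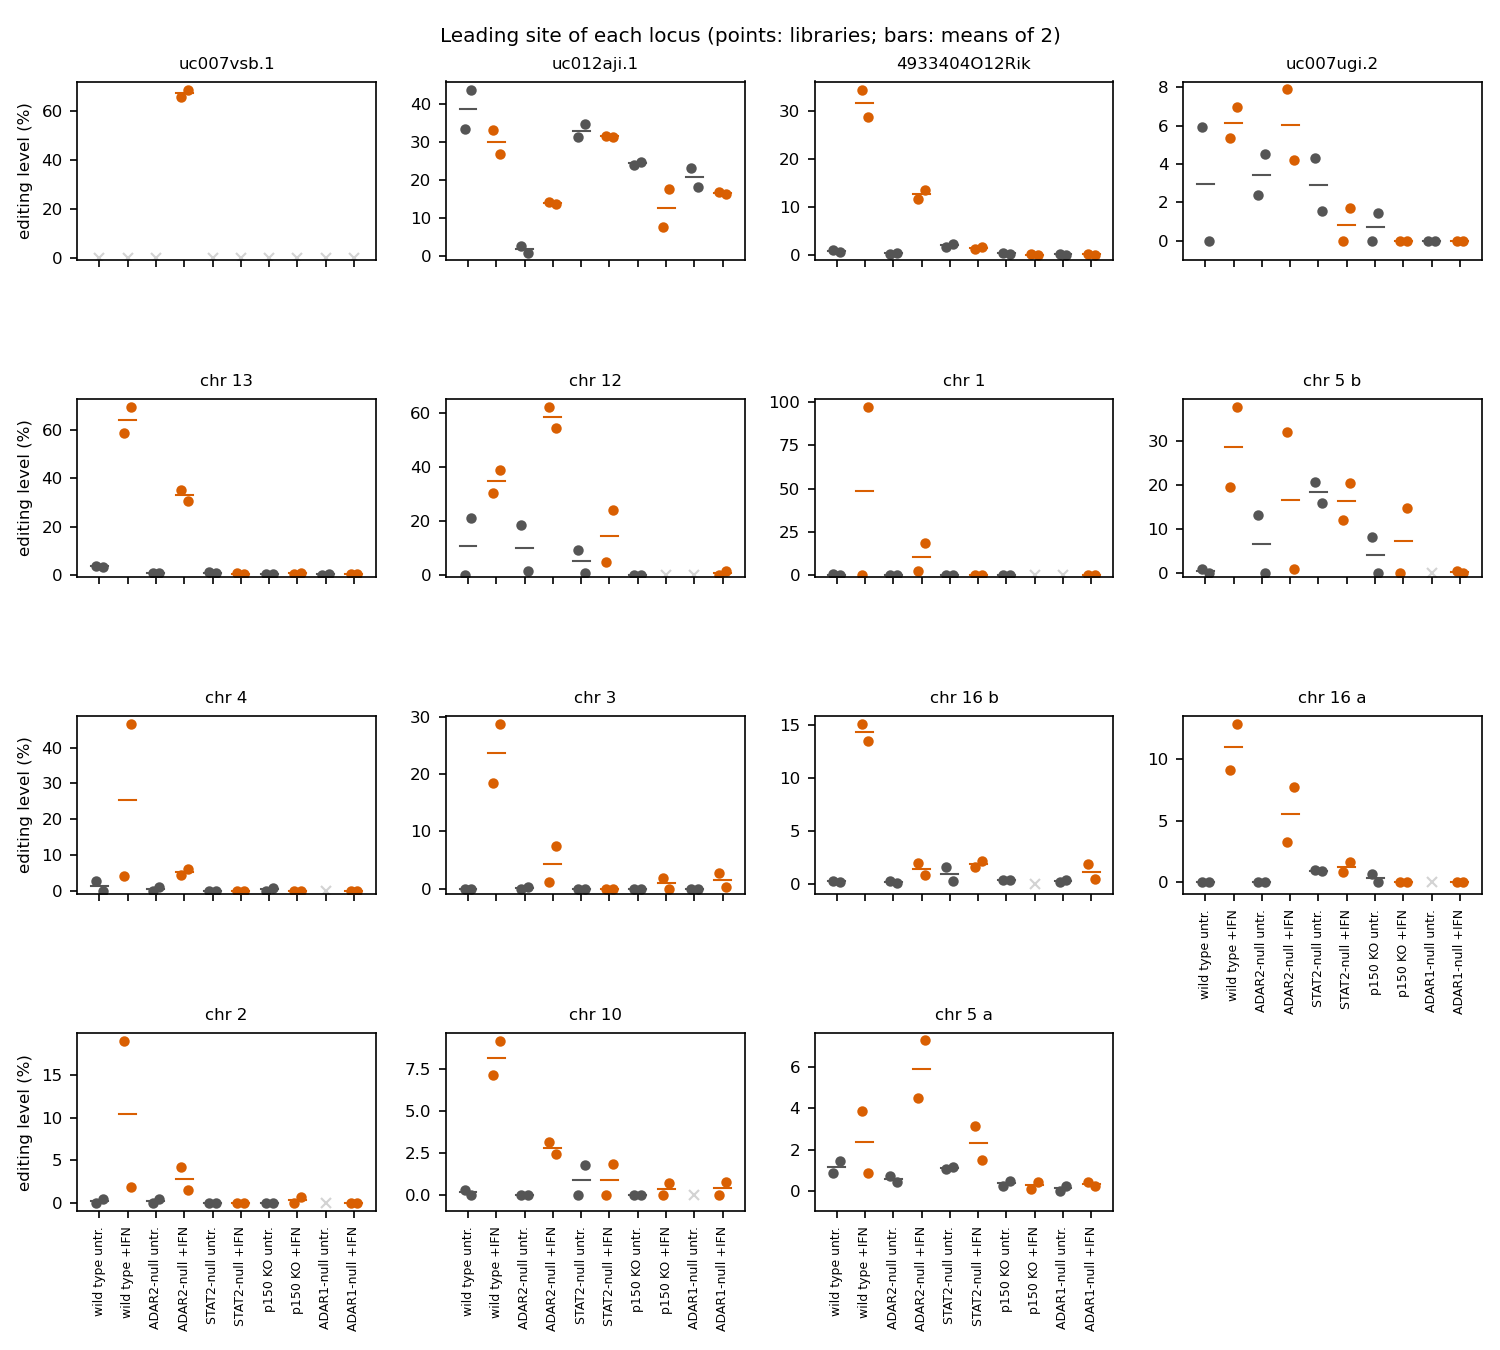
Editing level (percent) of the most edited position of each of the 15 loci in the 10 groups; points are libraries, bars means of 2, grey untreated and orange interferon-treated, and a grey cross marks a group in which a library had under 50 reads. Locus names are those of the heat map, and vertical scales differ. In wild-type cells the 2 treated points stand far apart at chr 1, chr 4 and chr 2.

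Responses were compared with that of wild-type cells directly, by an interaction term in the same fit. These 3 comparisons share the wild-type libraries. The term is poorly set where groups have no edited read, and such positions stay among those tested. At 100272400 on chromosome 3 the STAT2-null response differed by -23.6 points (SE 5.14) and was not called (edgeR unadjusted p = 0.9997). Positions without a call are therefore not shown to respond alike. The ADAR2-null response differed at 0 of 88 tested members (18 at an unadjusted p under 0.05; 0 called by limma), where 0.175% of all positions were called. Without treated wild-type library 1 it differed at 2. The STAT2-null response was smaller at 7 of 80 (13.8% of all positions called, 13.7% with a smaller response), namely 4 of chromosome 13, 2 of 4933404O12Rik and 1 of the second chromosome 16 locus. At 30561102 of the last its response differed by -13.2 points (SE 1.10, adjusted p = 0.0334), a call lost without any 1 of 6 of the 8 libraries (adjusted p = 0.0526 to 0.243), and with limma, no minimum mean level or only the groups compared (adjusted p = 0.0762 to 0.139). The p150-knockout response was smaller at 6 of 46 (17.2% of all positions called), or at 2 without its first untreated library. They were 3 positions of 4933404O12Rik, 2 of chromosome 13 and 72557984 on chromosome 6, where it differed by -4.52 points (SE 2, adjusted p = 0.0124), a call lost without the first treated p150-knockout library (adjusted p = 0.0549). At 137410856 of 4933404O12Rik it differed by -31.4 points (SE 2.69, adjusted p = 0.0124), and without the first untreated p150-knockout library that call was lost (adjusted p = 0.107). With only the groups compared, the response calls at 137410856, 72557984 and 64391666 were lost (adjusted p = 0.0643 to 0.0701).

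Other differences between treated lines and wild type followed the same loci. At 64391666 on chromosome 13 treated STAT2-null, p150-knockout and ADAR1-null cells differed from wild type by -63.9, -63.7 and -64.0 points (SE 5.30, 5.29 and 5.29; adjusted p = 1.92e-05, 2.95e-06 and 2.15e-06), calls kept in all alternatives tried. On chromosome 3, treated STAT2-null cells differed by -23.6 points at 100272400 (SE 5.14, adjusted p = 0.00153, kept in all 10 alternatives). On chromosome 12, treated ADAR1-null cells differed by -40.9 points at 55773344 (SE 9.60, adjusted p = 0.00168, kept in all 9 alternatives). At 6122631 of uc012aji.1 the untreated difference from wild type was -16.3 points for p150-knockout (SE 1.12, adjusted p = 0.00341), -16.7 points for ADAR1-null (SE 1.59, adjusted p = 0.000499) and -13.9 points for ADAR2-null cells (SE 0.767, adjusted p = 0.0365). The p150-knockout call was lost with no minimum mean level (adjusted p = 0.0882). The ADAR2-null call was lost without either ADAR2-null library or the second wild-type one. It was also lost with only the groups compared and with a mean of 1% over all 20 libraries. Treated ADAR2-null cells exceeded wild type at 6122662 of uc012aji.1, with 9.12% and 9.29% against 2.85% and 0.668% (7.44 points, SE 1.10, adjusted p = 0.0494), a call lost without either ADAR2-null library or the second wild-type one (adjusted p = 0.238 to 0.27), with limma (adjusted p = 0.0982) and with only the groups compared (adjusted p = 0.298).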

How the data were processed

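The members and lists were chosen with earlier results of these data known. Per the labels' protocols, RT-PCR products of 557 loci were pooled per sample and barcoded in a 15-cycle PCR; BWA, SAMtools and mm9 are named in the submitters' processing notes, and the sources used here give no versions, read filters or rule for edited reads. Per library and position, the authors deposited coverage and edited reads as a count and the editing level as a fraction; levels were recomputed as edited reads over coverage and matched the deposited fraction at 195328 of 195328 values with reads. Positions are printed as deposited, with their base (0 or 1) unstated; intergenic rows carry no strand, and no sequence is printed. Of 6 lines in the design text, 5 were analysed here.

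Edited and unedited counts were modelled with edgeR 4.0.16 (R 4.3.3, modelMatrixMeth, glmQLFit, glmQLFTest, 1 coefficient per group, all 20 libraries, two-sided). The code was run on simulated data with the same overdispersion in all libraries, which does not cover groups of unequal spread. Differences are means of library levels in percentage points with the SE of the 2 libraries per group. Alternatives used limma 3.58.1, no minimum mean level, 100 reads, only the groups compared, a replicate block, each library left out, and, chosen after seeing the data, a mean of 1% over all 20 libraries. Named are loci with a position reaching 5% and, in each comparison, the called position without overlap that differed most in each locus, up to 12 higher and 12 lower (6 and 6 for responses); further positions were chosen after their values were seen. A level of 0 is limited by 3 edited reads over the group's reads; limits cover counting error only, as amplicon reads carry no molecular identifiers. RefSeq gene names matched 4 of 12 noncoding RNAs. Tables and figures used Python 3.11.15, pandas 2.3.3, numpy 2.4.6 and matplotlib 3.10.9.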

Additional observations from a re-analysis of the deposited data

Results flagged for a closer look

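The interaction term called the interferon response different from that of wild-type cells at 7 members in STAT2-null and 6 in p150-knockout cells. The 3 named by the rule in each line are given here. The STAT2-null response was smaller at 137410858 of 4933404O12Rik (-31.45 points), at 64391666 of the chromosome 13 intergenic locus (-61.17 points) and at 30561102 of the second chromosome 16 locus (-13.16 points). The p150-knockout response was smaller at 137410856 of 4933404O12Rik (-31.35 points), at 64391666 on chromosome 13 (-60.34 points) and at 72557984 of the chromosome 6 locus (-4.518 points). The calls at 30561102 in STAT2-null and at 64391666 in p150-knockout cells were lost in 9 and 11 of 14 alternatives. Those at 137410856 and 72557984 in p150-knockout cells were lost in 2 each.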

How the results depend on the processing

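Of 71 named calls, 31 held in all their alternatives, 40 were lost in at least 1 and 0 changed sign. Counts of calls, in 18 comparisons and without leaving out libraries, stayed within 1.5 times in 88 cases and moved in 20. A fit of only the groups compared gave 8 calls for interferon in wild-type cells, 15 and 20 for treated STAT2-null and p150-knockout cells against wild type, 2 for the p150-knockout response, and 0 for untreated ADAR2-null and STAT2-null cells, treated ADAR2-null cells against wild type and untreated p150-knockout against ADAR1-null cells. With no minimum mean level the counts were 1 for untreated STAT2-null, 5 for untreated p150-knockout and 9 for treated ADAR2-null cells against wild type, 1 for untreated p150-knockout against ADAR1-null cells and 2 for the ADAR2-null response. With limma they were 1 for p150-knockout against ADAR1-null cells in either treatment, 1 for treated ADAR2-null cells and 11 for the STAT2-null response. A mean of 1% over all 20 libraries gave 1 for untreated ADAR2-null cells, 1 for untreated p150-knockout against ADAR1-null cells and 5 for treated ADAR2-null cells. The cause was not tested.

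Leaving out each library in turn gave 23 to 47 calls for interferon in wild-type cells, 25 to 34 in ADAR2-null, 0 to 2 in p150-knockout and 0 to 0 in STAT2-null and ADAR1-null cells. Against wild type, untreated counts were 1 to 2 (ADAR2-null), 0 to 2 (STAT2-null), 4 to 9 (p150-knockout) and 8 to 12 (ADAR1-null), and treated counts 0 to 16, 10 to 42, 29 to 36 and 34 to 67. For p150-knockout against ADAR1-null cells they were 0 to 1 untreated and 0 to 5 treated, and for the responses 0 to 2 (ADAR2-null), 5 to 9 (STAT2-null) and 2 to 7 (p150-knockout). Deviations of same-numbered libraries correlated at -0.161 to 0.145 over 45 pairs of groups (median 0.016, with 2 over 0.1). These correlations cannot show whether same-numbered libraries share a culture or batch. A replicate block gave 36 calls for interferon in wild-type and 38 in ADAR2-null cells, 29, 37 and 57 for treated STAT2-null, p150-knockout and ADAR1-null cells and 5 for the p150-knockout response. Loci with under 200 reads per group, as on chromosomes 4 and 14, resolve levels of a few percent only.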
